A study of Homo sapiens with 12 samples.

Results

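HL‐60 cells, a human acute myeloid leukaemia line with the morphology of granulocyte precursors, are labelled as wild type and of myeloid origin. The comparison described here asks which transcripts changed when the CDK4/6 inhibitor palbociclib was added to all‐trans retinoic acid (ATRA). Cells given 100 nM ATRA together with 500 nM palbociclib were compared with cells given 100 nM ATRA alone, each in 3 libraries after 3 h, so that ATRA was present in both groups and only palbociclib differed. Of the 12 libraries of the series these are 6. The other 6 came from untreated cells and from cells given 500 nM palbociclib alone, 3 of each at the same time point. All cells grew in the same serum‐containing medium and come from a single cell line, so the replicates are repeats in that line and not different donors. Genes entered the comparison when their RPKM (reads normalised for gene length and library size) was at least 5 in at least 3 of the 12 libraries, which left 7820 of 58233 genes. The libraries were compared in pairs that carry the same replicate number.

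CDK4 and CDK6 act with D‐type cyclins early in G1 phase. They phosphorylate the retinoblastoma protein RB, which otherwise holds E2F transcription factors inactive at the promoters of genes for DNA synthesis. Cyclin E with CDK2 then reinforces this step, and the cell enters S phase. Palbociclib blocks CDK4 and CDK6. ATRA is the ligand of the retinoic acid receptors, switches on their target genes and drives HL‐60 cells towards granulocytes.

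The labelled cell type was checked against marker genes. Of 12 markers of granulocyte precursors, 11 stood at 5 RPKM or more in all 6 libraries, and the list summed to 3360 to 3556 RPKM with ATRA and 3382 to 3661 with the combination. The 7 erythroid, 4 megakaryocyte and 7 fibroblast and epithelial markers were all listed at 0. Of the T and NK cell markers 6 of 8 were at 0, and of the B cell markers 4 of 5. However, 1 T and NK cell marker stood at 5 RPKM or more in all 6 libraries. The granulocyte precursor marker below that level was ELANE, at 1, 1 and 0 RPKM in replicates 1 to 3 of both groups. Values are given as RPKM that the authors rounded to whole numbers, so a change of 1 is the smallest step that can be seen. The RPKM of a library summed to between 358455 and 390247, which does not give its depth, and no counting error could be computed. Errors are SD over the 3 libraries of a group. The labels do not say what the replicates of a group share. The p‐values measure the spread left among the fitted libraries once those of the same replicate number are matched, and this spread may be technical.

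Adding palbociclib to ATRA lowered genes of the G1/S transition and of DNA replication at 3 h, while fewer genes were called higher in the model used here and by less. Against ATRA alone, 143 genes were lower (1.83% of the 7820 tested) and 45 were higher (0.575%), when limma calls were made at an adjusted p‐value under 0.05. All fold changes are on the log2(RPKM + 0.1) scale and are means of the same‐numbered differences between the combination and ATRA. The median log2 fold change was -0.29 among the lower genes, which reached -1.17, and 0.17 among the higher genes, which reached 0.33. Over all tested genes the median was 0, with the 5th and 95th percentiles at -0.19 and 0.14. Beyond 0.5 in either direction lay 21 of the lower and 0 of the higher genes. Each called gene moved in the same direction in its 3 pairs, as did 908 of all tested genes downwards (11.6%) and 887 upwards (11.3%). The ATRA and combination libraries did not overlap for 71 of the 143 lower and for 7 of the 45 higher genes, against 265 of all tested genes (3.39%). In bulk RNA, fewer cells in S phase and less RNA per cell cannot be told apart.

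Many of these calls rest on the smallest step that the rounded values allow. A difference of exactly 1 RPKM in every pair made up 39 of the 143 lower and 26 of the 45 higher calls, and for 9 and 3 genes the replicates did not vary at all within either group. A mean difference above 1 RPKM was seen for 104 lower and 19 higher genes. The balance of the calls also depends on the libraries fitted, since the 6 compared libraries alone, paired by replicate number, gave 262 lower and 243 higher genes and called 101 of the 188 again. E2F1 was among those that then missed the threshold (adjusted p = 0.0555). Of the 12 largest decreases only CCNE1 (adjusted p = 0.0226) and DTL (adjusted p = 0.0485) passed in that limma fit. MCM2, MCM3, MCM4, MCM6, MCM7, PCNA, CDC6 and RRM2, called below, missed it too, while EZH2, SLBP, DSCC1 and ORC1 passed. Named genes that passed in that fit but not in the model used here are marked below, whereas other losses are not. The calls rest on the pairing and on replicate 2 as well. With the replicate number left out of the model 0 genes were called by limma, with 222 lower and 55 higher at an unadjusted p‐value under 0.05. Without replicate 2 of all groups 0 were called as well, with 558 and 424 at that unadjusted level, while 180 and 135 were called without replicate 1, and 50 and 25 without replicate 3. Leaving out any single ATRA or combination library gave between 12 and 76 lower and between 5 and 38 higher genes. The direction of each called gene named here was the same under all these settings, which adds little. Each called gene moved the same way in its 3 pairs, so leaving out a replicate number could not turn it.

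**Figure D1:**
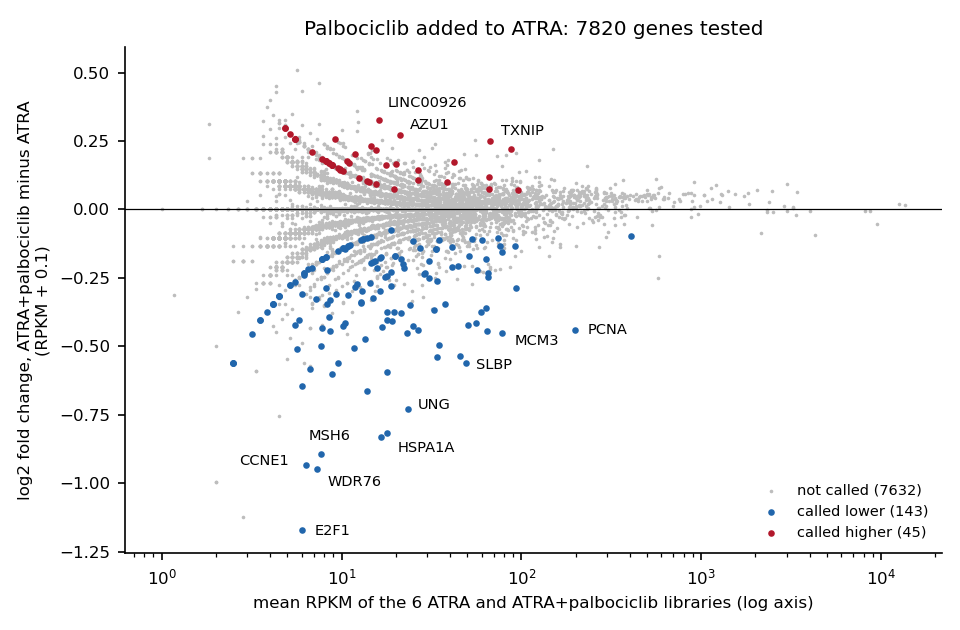
Log2 fold change of the combination against ATRA (vertical axis) against the mean RPKM of the 6 libraries (horizontal log axis) for the 7820 genes tested. Grey points are the 7632 genes not called, blue points the 143 lower and red points the 45 higher genes. The blue points reach -1.17 and the red points no more than 0.33.

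E2F1 (ENSG00000101412, chr20:33675477-33686385), the founding member of the E2F factors that RB restrains, showed the largest decrease. It stood at 9, 8 and 8 RPKM in ATRA replicates 1 to 3 and at 4, 4 and 3 with the combination. The mean fell from 8.33 ± 0.577 to 3.67 ± 0.577 RPKM (SD, n = 3), a 2.25‐fold decrease (log2 fold change -1.17, standard error 0.080, adjusted p = 0.0117). Every combination library lay below every ATRA library. CCNE1 (ENSG00000105173, chr19:29811991-29824312), which encodes cyclin E1, the partner of CDK2, read 9, 8 and 8 RPKM with ATRA and 5, 4 and 4 with the combination. This was a 1.91‐fold decrease (log2 fold change -0.93, standard error 0.068, adjusted p = 0.0123) with no overlap of the groups. CDC25A, the phosphatase that activates CDK2, read 22, 21 and 22 RPKM with ATRA and 15, 15 and 13 with the combination, a log2 fold change of -0.60 (adjusted p = 0.0178). Over 25 alternative settings E2F1 and CCNE1 were each called in 15, and the adjusted p of E2F1 ranged from 1.51e-04 to 0.103.

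The other large decreases were mostly genes of DNA synthesis and repair. WDR76 (chr15:43826980-43868412), a substrate receptor of CUL4 ubiquitin ligases, stood at 9, 11 and 9 RPKM with ATRA and at 5, 6 and 4 with the combination (log2 fold change -0.95, adjusted p = 0.0177). MSH6, which recognises base mismatches, read 10, 9 and 11 RPKM with ATRA and 6, 5 and 5 with the combination (log2 fold change -0.89, adjusted p = 0.0165). UNG, the glycosylase that removes uracil from DNA, read 33, 27 and 27 RPKM with ATRA and 22, 17 and 14 with the combination (log2 fold change -0.73, adjusted p = 0.0234). None of these groups overlapped. DTL, the CUL4 receptor that marks the licensing factor CDT1 for destruction, had a log2 fold change of -0.67 (adjusted p = 0.0145). MCM10, which takes part in the firing of origins, had one of -0.65 (adjusted p = 0.0226). CLSPN, the fork protein that passes the checkpoint signal to CHEK1, fell by 0.60 on the log2 scale (adjusted p = 0.0281), and DONSON, a factor of replication initiation, by 0.58 (adjusted p = 0.0489).

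A pair of heat shock genes completes the 12 largest decreases. HSPA1B (ENSG00000204388, chr6:31827738-31830254), an inducible HSP70 chaperone, stood at 14, 22 and 28 RPKM with ATRA and at 9, 12 and 14 with the combination (log2 fold change -0.83, adjusted p = 0.0193). HSPA1A read 15, 24 and 30 RPKM with ATRA and 10, 13 and 15 with the combination (log2 fold change -0.82, adjusted p = 0.0193). Each pair moved down, but the groups touched or overlapped, and replicate 1 was the lowest of both groups as well as of the untreated and the palbociclib libraries. These neighbouring genes are near‐identical copies, so the division of reads between them is uncertain and they do not count as separate results.

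E2F factors bind short GC‐rich words near the start of their target genes. RefSeq promoters on GRCh38.p14, from 250 bases before to 50 after the start, were searched on both strands for the words TTTCCCGC, TTTCGCGC, TTTGCCGC and TTTGGCGC, and matches were allowed to overlap. At least 1 word stood in 25 of the 120 lower genes with a listed promoter (20.8%). The share was 5.41% for the 37 higher genes, 6.38% for 5423 tested protein‐coding genes and 3.33% for all 27305 promoters. It was 55.0% (11 of 20) for genes of origin licensing and firing and 36.4% (8 of 22) for genes of the replication fork. For the recombination and Fanconi genes described below it was 12.5% (2 of 16), and for the G2/M genes 6.82% of 44. Shown here are the promoters of the 12 largest decreases that hold a word within 75 bases before to 25 after the start, with MCM3, PCNA and EZH2 as examples from the licensing, fork and Polycomb genes. They are written 5′ to 3′ on the strand of the gene, and capitals mark the word on either strand.
E2F1 (chr20:33686361-33686460, minus strand): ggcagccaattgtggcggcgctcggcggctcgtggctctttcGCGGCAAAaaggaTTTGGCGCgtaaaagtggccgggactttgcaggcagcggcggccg
MSH6 (chr2:47783070-47783169, plus strand): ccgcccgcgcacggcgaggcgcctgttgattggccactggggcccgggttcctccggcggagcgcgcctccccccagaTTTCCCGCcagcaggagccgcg
DTL (chr1:212035673-212035772, plus strand): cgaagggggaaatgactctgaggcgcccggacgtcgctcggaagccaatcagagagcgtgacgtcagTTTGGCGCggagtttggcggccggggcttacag
CLSPN (chr1:35769954-35770053, minus strand): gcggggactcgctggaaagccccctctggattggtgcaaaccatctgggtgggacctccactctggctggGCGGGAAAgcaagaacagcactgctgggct
CDC25A (chr3:48188393-48188492, minus strand): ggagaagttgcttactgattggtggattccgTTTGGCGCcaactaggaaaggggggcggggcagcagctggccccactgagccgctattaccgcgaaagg
MCM3 (chr6:52284718-52284817, minus strand): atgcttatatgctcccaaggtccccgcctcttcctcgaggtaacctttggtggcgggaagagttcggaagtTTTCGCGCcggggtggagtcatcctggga
PCNA (chr20:5126598-5126697, minus strand): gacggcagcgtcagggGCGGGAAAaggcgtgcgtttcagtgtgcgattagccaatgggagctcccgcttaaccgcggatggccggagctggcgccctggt
EZH2 (chr7:148884267-148884366, minus strand): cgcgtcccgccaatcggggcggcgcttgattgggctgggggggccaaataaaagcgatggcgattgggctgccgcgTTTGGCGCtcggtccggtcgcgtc
The E2F1 window holds 2 words on opposite strands and each other window holds 1. The promoters listed for CCNE1, UNG, MCM10, HSPA1A and HSPA1B hold none of these 4 words, which says only that these letters are absent from the window. That of SLBP, called lower and described below, holds none either. For WDR76 and DONSON no promoter was listed. A match is a description of the sequence and not a measured binding site.

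**Figure D2:**
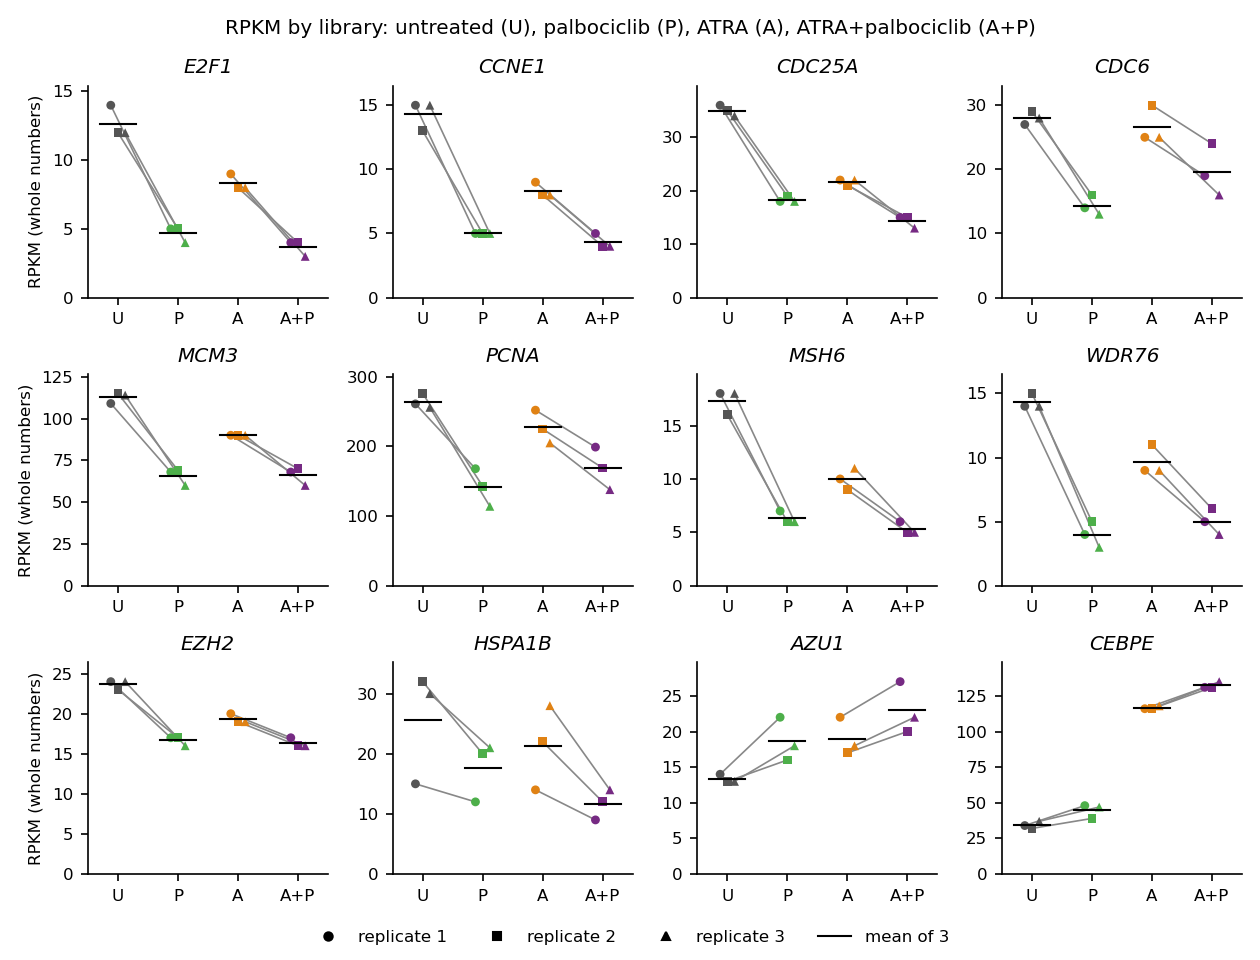
RPKM (vertical axis, from 0) of 12 genes in each of the 12 libraries, with untreated (U), palbociclib (P), ATRA (A) and combination (A+P) libraries side by side. Points are libraries, bars are means of 3 libraries, and lines join the same replicate number from U to P and from A to A+P. E2F1, CCNE1, CDC25A, CDC6, MCM3, PCNA, MSH6, WDR76 and EZH2 do not overlap between A and A+P, HSPA1B and AZU1 do, and CEBPE lies higher in A+P.

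Decreases were found among the genes that control passage from G1 to S phase. Of 20 cyclins, CDKs, CDK inhibitors, CDC25A and other regulators of this step, 15 were tested, 6 fell (of all tested genes 1.83% did), 0 rose and the median log2 fold change was -0.23. Besides CCNE1 and CDC25A, these were WEE1, CDK2, SKP2 and CCNA2. CCNA2, which encodes the S phase cyclin A2, read 70, 73 and 67 RPKM with ATRA and 61, 63 and 55 with the combination (log2 fold change -0.23, adjusted p = 0.0226). SKP2, which targets the CDK inhibitor p27 for degradation, had the same log2 fold change. The transcripts of the targets of palbociclib did not pass the test. CDK4 and CDK6 had log2 fold changes of -0.06 and -0.09, and the D‐type cyclins CCND3 and CCND2 had values of -0.02 and 0.00. CCNE2 was too low for the test, at 1, 1 and 2 RPKM with ATRA and listed at 0 in all 3 combination libraries.

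Among the E2F factors, pocket proteins and their partners, E2F1 was the single call of 14 tested genes out of 20, yet 12 had a negative log2 fold change and 11 were lower in every pair. The median of the list was -0.20. Of all 7820 tested genes 1.83% were called lower, 3028 had a negative value and 908 (11.6%) were lower in every pair. The RB relative RBL1 read 7, 10 and 10 RPKM with ATRA and 6, 8 and 6 with the combination (log2 fold change -0.42, adjusted p = 0.177). E2F8, a repressor of the family, had a value of -0.34 (adjusted p = 0.129), and the B‐Myb gene MYBL2 had one of -0.22 (adjusted p = 0.0616). RB1 itself stood at -0.16 (adjusted p = 0.0712). E2F4, which works mainly as a repressor with the pocket proteins, stood at 0.04.

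Genes of origin licensing and firing were lower too. Of 25 genes 24 were tested, 10 fell, 21 had a negative log2 fold change and the median was -0.36. Over all 7820 tested genes 1.83% fell and 3028 had negative values. Of the 6 subunits of the MCM2–7 helicase, which is loaded on origins in G1 phase, MCM2, MCM3, MCM4, MCM6 and MCM7 fell by 0.29 to 0.54 on the log2 scale. MCM3 read exactly 90 RPKM in each ATRA library and 68, 70 and 60 with the combination (log2 fold change -0.45, adjusted p = 0.0226). MCM5 read 31, 31 and 33 RPKM against 26, 26 and 24, without passing (log2 fold change -0.32, adjusted p = 0.148). CDC6, which loads the helicase, stood at 25, 30 and 25 RPKM with ATRA and at 19, 24 and 16 with the combination (log2 fold change -0.45, adjusted p = 0.0490). Its groups were separated by a single RPKM step. The licensing inhibitor geminin, encoded by GMNN, fell in parallel (log2 fold change -0.44, adjusted p = 0.0178), as did the origin recognition subunit ORC1 (-0.43, adjusted p = 0.0165). CDT1 read 12, 13 and 12 RPKM against 9, 10 and 8 and missed the threshold (log2 fold change -0.46, adjusted p = 0.0757). ORC2 and ORC5, by contrast, had positive values of 0.12 and 0.04 and were not called.

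At the replication fork all 27 genes of the list were tested and all 27 had a negative log2 fold change, 23 of them in every pair. The median was -0.21 and 9 passed. Among all 7820 tested genes 3028 had negative values, 908 (11.6%) were lower in every pair and 1.83% were called lower. PCNA, the sliding clamp of the polymerases, read 252, 225 and 205 RPKM with ATRA and 199, 169 and 138 with the combination. It was 1.36‐fold lower (log2 fold change -0.44, adjusted p = 0.0303), and the lowest ATRA library lay just above the highest combination library. FEN1, the nuclease that trims Okazaki fragments, read 67, 63 and 62 RPKM against 52, 48 and 44 (log2 fold change -0.42, adjusted p = 0.0120). DSCC1, of an alternative clamp loader, had a log2 fold change of -0.51 (adjusted p = 0.0066), the polymerase delta subunit POLD3 one of -0.45 and the clamp loader subunit RFC4 one of -0.41. The primase subunit PRIM1 and the single‐strand binding subunit RPA1 fell less, by 0.32 and 0.14. POLD2 (-0.04) and RPA2 (-0.07) were not called, although their complexes contain subunits that fell.

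Transcripts of enzymes that supply deoxynucleotides were lower as well. Of 14 genes 13 were tested, 4 fell (of all tested genes 1.83% did) and the median was -0.15. RRM2, the regulated subunit of ribonucleotide reductase, read 53, 64 and 56 RPKM with ATRA and 42, 48 and 39 with the combination (log2 fold change -0.42, adjusted p = 0.0390). RRM1, its large subunit, fell by 0.22 and TYMS, thymidylate synthase, by 0.25 on the log2 scale. UNG, which belongs to the same list, fell the furthest.

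All 18 tested genes of the 27 for homologous recombination and the Fanconi pathway had negative values, with 6 calls and a median of -0.22. Over all 7820 tested genes 3028 had negative values and 1.83% were called lower. RBBP8, which starts end resection, had a log2 fold change of -0.51 (adjusted p = 0.0443), and USP1, which deubiquitinates FANCD2 and PCNA, one of -0.37 (adjusted p = 0.0274). BRCA1 read 9, 15 and 15 RPKM against 7, 12 and 11 and was not called (log2 fold change -0.37, adjusted p = 0.105). Among 13 tested genes of 16 for mismatch repair and checkpoints the median was -0.06 (-0.33 with the filter at 10 RPKM and 0 without replicate 2), and 4 fell, with MSH6, CHEK1 and RAD1 among them. The share that fell among all tested genes was 1.83%. CHEK1, the checkpoint kinase that CLSPN serves, read 10, 10 and 9 RPKM with ATRA and 8, 8 and 7 with the combination (log2 fold change -0.33, adjusted p = 0.0417). The checkpoint kinases ATM and ATR stood at 0.00 and 0.07 and were not called. RAD1 differed by exactly 1 RPKM in each pair.

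The CUL4 list held subunits of this ubiquitin ligase, its receptors and related proteins of replicating chromatin. Of 9 tested genes WDR76, DTL and UHRF1 fell, against 1.83% of all tested genes. UHRF1, itself a ubiquitin ligase that binds hemimethylated DNA behind the fork, read 36, 41 and 44 RPKM with ATRA and 26, 29 and 28 with the combination (log2 fold change -0.54, adjusted p = 0.0123). DDB1 read 28, 30 and 32 RPKM against 28, 31 and 31, and CUL4A had a log2 fold change of -0.03. The median over the list was -0.06, -0.03 with each library centred on its median and -0.54 with the filter at 10 RPKM, which leaves fewer genes.

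The S phase list of the Seurat package shares genes with the lists above. Of 43 genes 41 were tested, all 41 were lower, 40 of them in every pair, and 29 passed. Among all 7820 tested genes 3028 were lower, 908 (11.6%) in every pair, and 1.83% passed downwards. The median log2 fold change of the S phase list was -0.42. Medians within the pairs were -0.32, -0.38 and -0.51 for replicates 1 to 3, so the S phase genes were lower in every pair and by the most in replicate 3. SLBP, which binds the stem‐loop of histone mRNAs, read 68, 52 and 55 RPKM with ATRA and 48, 35 and 36 with the combination (log2 fold change -0.56, adjusted p = 0.0066). CHAF1B, a subunit of the chromatin assembly factor, had a larger log2 fold change of -0.76 but low values, at 5, 6 and 6 against 3, 4 and 3 RPKM, and missed the threshold (adjusted p = 0.0772).

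In the next phase of the cycle the median lay nearer to 0. Of the 54 G2M phase genes 52 were tested and 1 fell, SMC4 of condensin (log2 fold change -0.19, adjusted p = 0.0152). The median was -0.07, and -0.03 with each library centred on its median. Yet 46 of the 52 were below 0, 34 (65.4%) were lower in every pair and 25 passed downwards before adjustment (unadjusted p under 0.05). Of all 7820 tested genes, 3028 were below 0, 908 (11.6%) were lower in every pair and 768 passed downwards at that level. CDK1, the kinase of mitotic entry, read 46, 52 and 44 RPKM with ATRA and 42, 47 and 40 with the combination. Each pair was lower while the groups overlapped (log2 fold change -0.14, adjusted p = 0.0741). The paired fit of the 6 compared libraries called CDK1 lower (adjusted p = 0.0167). MKI67 had a log2 fold change of -0.18 (adjusted p = 0.225), TOP2A one of -0.10 and AURKA one of -0.07. CCNB2, which the paired fit of 6 libraries also called (adjusted p = 0.0238), and CDC20 stood at -0.04 and -0.03. The CHR word TTTGAA, through which the MuvB complex acts on late cell cycle genes, stood in 70.5% of their 44 listed promoters, in 10.0% of the lower genes and in 10.0% of the tested protein‐coding genes. It occurs in 15.4% of all promoters and is contained in none of the E2F words.

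**Figure D3:**
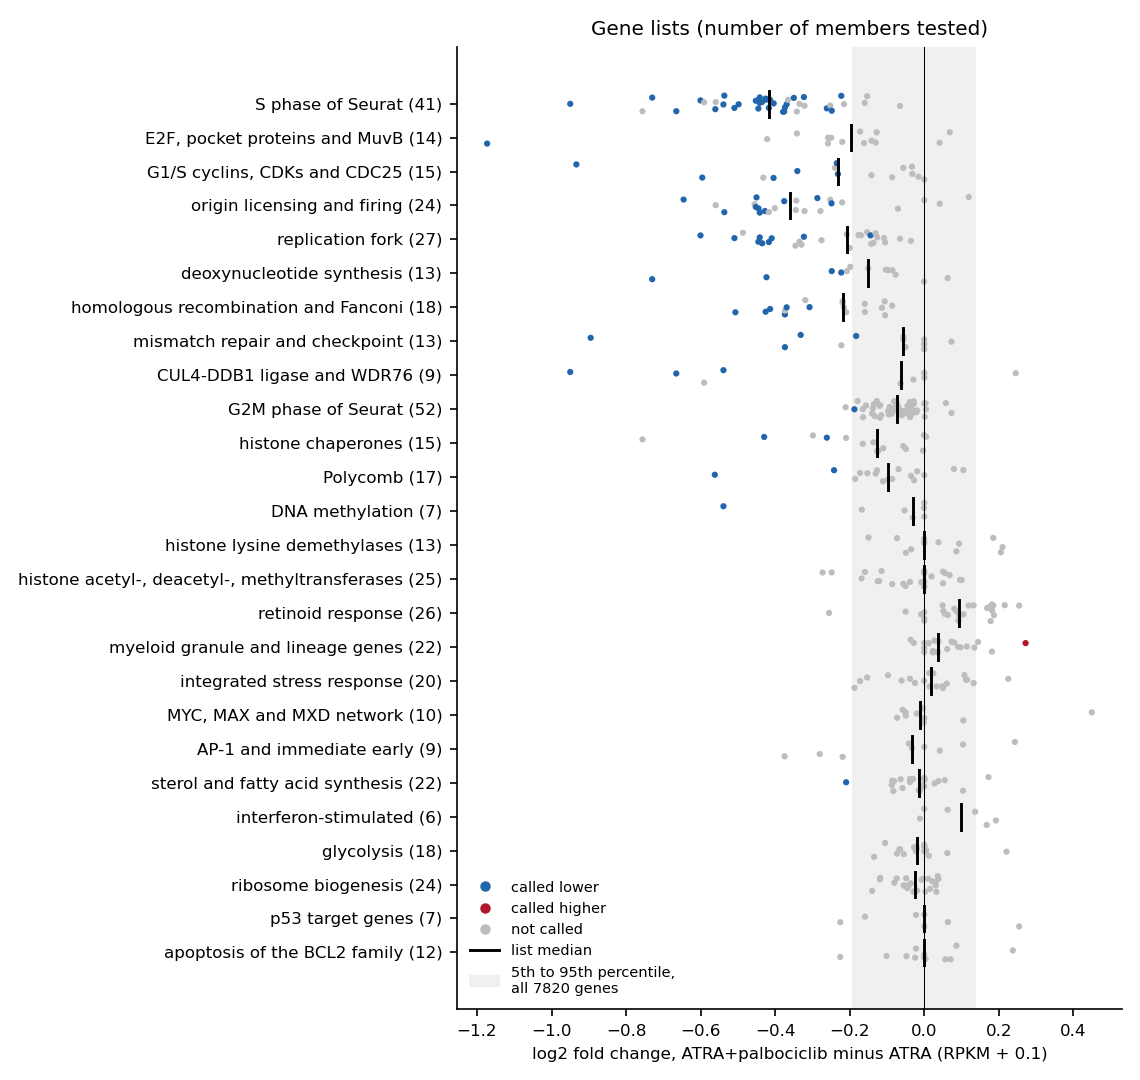
Log2 fold change of the combination against ATRA (horizontal axis) for each tested gene (point) of 26 gene lists, with the median of each list as a vertical bar and called genes in colour. The grey band spans the 5th to 95th percentile of all tested genes, from -0.19 to 0.14. The medians of the S phase list (-0.42) and of origin licensing (-0.36) lie furthest below the band.

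**Figure D4:**
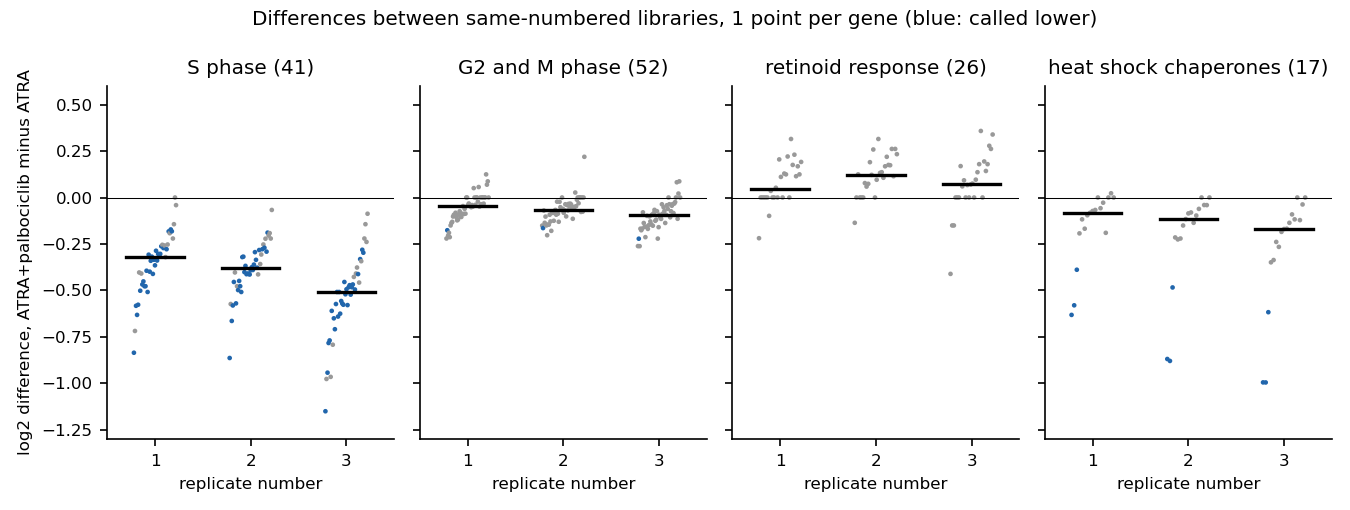
Log2 difference between the combination and ATRA within each replicate number (vertical axis) for the genes of the S phase, G2M phase, retinoid and heat shock lists, with points for genes, blue for genes called lower and a bar for the median of the list. The S phase medians are -0.32, -0.38 and -0.51 in replicates 1, 2 and 3.

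Polycomb genes, which encode the repressor complexes PRC1 and PRC2, the latter a methyltransferase of histone H3, gave 2 calls among 17 tested of 22, with a median of -0.10. Both calls were lower, as were 1.83% of all tested genes. EZH2 (ENSG00000106462, chr7:148807257-148884321), the catalytic subunit of PRC2, read 20, 19 and 19 RPKM with ATRA and 17, 16 and 16 with the combination. The groups were separate and the difference was 1.18‐fold (log2 fold change -0.24, adjusted p = 0.0173). Its partners were not called, with SUZ12 at 20, 25 and 23 RPKM against 19, 22 and 20 (log2 fold change -0.15, adjusted p = 0.28) and EED at -0.17. The other call was CBX2 of PRC1, listed at 3 RPKM in every ATRA and at 2 in every combination library, which is a single rounding step. Histone chaperones gave 2 calls among 15 (against 1.83% of all tested genes), CHAF1A (log2 fold change -0.43, adjusted p = 0.0237) and NASP (log2 fold change -0.26, adjusted p = 0.0318). The maintenance methyltransferase DNMT1 read 30, 35 and 35 RPKM against 27, 32 and 30 (log2 fold change -0.17, adjusted p = 0.0572).

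Histone demethylases gave 0 calls by limma among 13 tested of 17, 3 genes higher before adjustment (unadjusted p under 0.05) and a median of 0. At that unadjusted level 519 of all 7820 tested genes were higher and 768 lower. KDM6B, which removes methyl groups from lysine 27 of histone H3, read 3, 4 and 4 RPKM with ATRA and 3, 5 and 5 with the combination, a log2 fold change of 0.21 (adjusted p = 0.346) that is a step of 1 RPKM in replicates 2 and 3. KDM4A read 11, 14 and 14 RPKM against 13, 15 and 17 (log2 fold change 0.21, adjusted p = 0.0799). Among 25 tested acetyltransferases, deacetylases and methyltransferases 0 were called, 6 were lower at that unadjusted level and the median was 0. Of 84 clustered histone genes 5 could be tested, and 0 were called or passed the unadjusted level. HIST1H2BK was listed at 6 RPKM in every ATRA and at 7 in every combination library (log2 fold change 0.22, adjusted p = 0.31). The paired fit of the 6 libraries, in which these replicates have no spread, called it (adjusted p = 6.58e-04).

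Genes that rose changed by less. The largest increase was LINC00926, a long non‐coding RNA, at 17, 13 and 13 RPKM with ATRA and 21, 16 and 17 with the combination (log2 fold change 0.33, adjusted p = 0.0478). AZU1 (ENSG00000172232, chr19:825097-832018), which encodes the azurophil granule protein azurocidin, read 22, 17 and 18 RPKM with ATRA and 27, 20 and 22 with the combination (log2 fold change 0.27, adjusted p = 0.0123). Both genes rose in every pair, while their groups overlapped, with replicate 1 the highest in each. TXNIP, which restrains thioredoxin and glucose uptake, read 57, 64 and 63 RPKM against 67, 73 and 79 (log2 fold change 0.25, adjusted p = 0.0303), without overlap. SNHG8, a small nucleolar RNA host gene, read 95, 74 and 73 RPKM against 110, 86 and 86 (log2 fold change 0.22, adjusted p = 0.0132). TMEM129 and KRCC1 rose by 0.26 and 0.23. The other 6 of the 12 largest increases differed by exactly 1 RPKM in every pair. These were ZNF513, MKS1 and AASDH, and WDR59, PTPRN2 and MMAB, the last 3 with 5 RPKM in every ATRA and 6 in every combination library.

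Among ATRA targets and differentiation genes most values were above 0 and 1 gene passed. Of 39 retinoid response genes 26 were tested and 0 passed in limma. Before adjustment 6 were higher and 1 was lower (unadjusted p under 0.05), against 519 and 768 of all 7820 tested genes. Above 0 were 20 of the 26, 12 of them in every pair, and the median log2 fold change was 0.09. Of all 7820 tested genes 3338 were above 0, and 887 (11.3%) were higher in every pair. CEBPE (ENSG00000092067, chr14:23117036-23120256), the factor of late granulocytic differentiation, read 116, 116 and 118 RPKM with ATRA and 131, 131 and 135 with the combination. The groups were separate, but the log2 fold change of 0.18 did not pass (standard error 0.067, adjusted p = 0.30). In the paired fit of the 6 compared libraries it did (adjusted p = 0.0169). BTG2, an antiproliferative gene, read 14, 17 and 15 RPKM against 16, 20 and 19 (log2 fold change 0.25, adjusted p = 0.256). ASB2, a ubiquitin ligase subunit induced by retinoids, had a value of 0.22, and CYBB, the oxidase of the respiratory burst, one of 0.09. TNFAIP2 was in the opposite direction at -0.26. The receptors RARA and RXRA stood at 0.05 and -0.05 and were not called. Among 22 tested myeloid granule and lineage genes AZU1 was the single call and 17 were above 0, with a median of 0.04. Over all 7820 tested genes 0.575% were called higher and 3338 were above 0. GFI1 read 84, 85 and 86 RPKM with ATRA and 90, 93 and 93 with the combination (log2 fold change 0.11, adjusted p = 0.0796, and 0.0386 in the paired fit of 6 libraries), and SPI1 read 108, 102 and 105 against 112, 111 and 110 (log2 fold change 0.08, adjusted p = 0.245). In both the groups were separate without passing the test. MPO, the most abundant of them, had a log2 fold change of 0.04.

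The same genes were read in the cells without ATRA. The groups compared share no library with those above, but the palbociclib libraries entered both models, which therefore share part of their estimates of the spread and of the block. Palbociclib against untreated cells called 636 genes lower (8.13%) and 430 higher (5.5%). With each library centred on its median these numbers were 305 and 666, while against ATRA the same centring gave 56 lower and 16 higher. Without replicate 2 there were 22 lower and 3 higher, and without replicate 3 there were 158 and 58. Of the 143 genes lower with ATRA present, 141 were also lower without it, 112 of them called, with a median log2 fold change of -0.48 as against -0.29. Of the 45 higher genes 43 were higher without ATRA, 24 of them called, with medians of 0.21 and 0.17. E2F1 stood at 14, 12 and 12 RPKM in untreated cells and at 5, 5 and 4 with palbociclib, and CCNE1 at 15, 13 and 15 and at 5, 5 and 5. For both genes the ATRA libraries lay below the untreated ones, and each combination library was within 1 RPKM of the palbociclib library of the same number. WDR76 showed this too, at 14, 15 and 14 RPKM untreated, 4, 5 and 3 with palbociclib, 9, 11 and 9 with ATRA and 5, 6 and 4 with the combination. CDC6 did not, since it stood at 27, 29 and 28 RPKM untreated and 25, 30 and 25 with ATRA, and at 14, 16 and 13 with palbociclib against 19, 24 and 16 with the combination.

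For the replication lists the medians of the palbociclib effect lay nearer to 0 on the log2 scale when ATRA was present. For the S phase list the median was -0.79 without ATRA and -0.42 with it, for origin licensing -0.69 and -0.36, for the replication fork -0.58 and -0.21, and for recombination -0.54 and -0.22. ATRA against untreated, which shares the ATRA libraries, gave medians of -0.29, -0.27, -0.19 and -0.24 for these lists. The difference between the effects was tested gene by gene, as the palbociclib effect with ATRA minus that without. It was called for 0 genes by limma, with 365 positive and 259 negative at an unadjusted p‐value under 0.05, and the smallest adjusted p was 0.0852. That gene was DDIT4, a stress‐induced inhibitor of mTOR signalling. It stood at 4, 5 and 3 RPKM untreated, 8, 10 and 7 with palbociclib, 30, 33 and 25 with ATRA and 35, 39 and 29 with the combination. The log2 difference with palbociclib was 1.05 without ATRA and 0.23 with it, the latter not called (adjusted p = 0.0675) but passing in the paired fit of 6 libraries (adjusted p = 0.0169). Without replicate 1 the test called 101 positive and 108 negative genes. For the S phase list the difference was positive in 40 of 41 genes, with a median of 0.40. It was positive in 3734 of all 7820 tested genes. None of the S phase genes passed by itself.

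**Figure D5:**
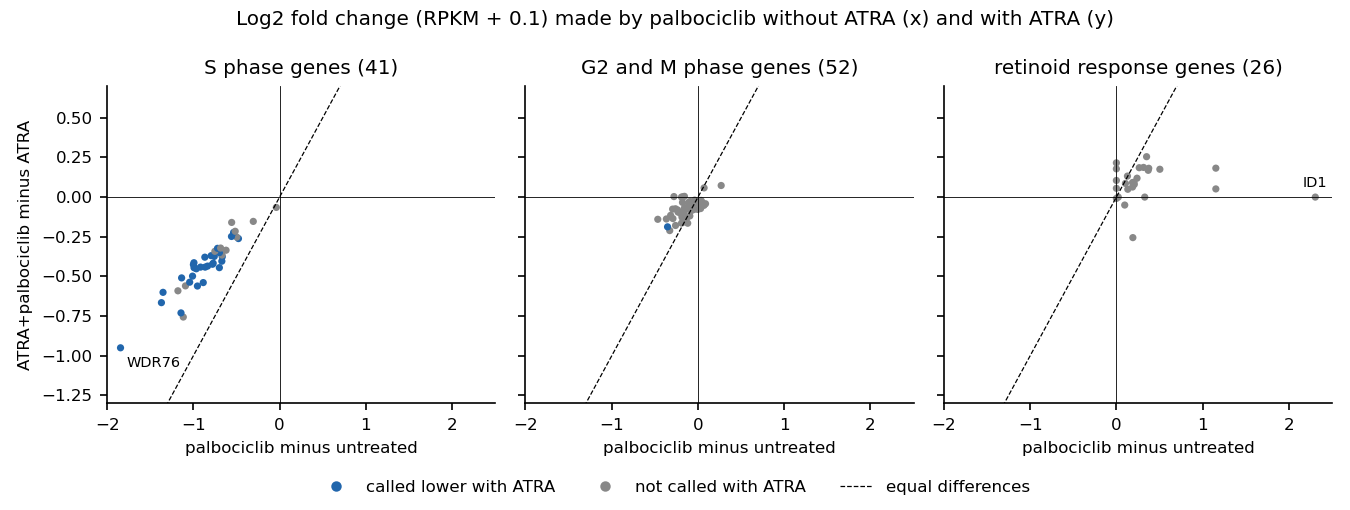
Log2 fold change of the combination against ATRA (vertical axis) plotted against that of palbociclib against untreated cells (horizontal axis) for the genes of the S phase, G2M phase and retinoid lists, with a dashed line where both are equal. S phase genes lie below 0 on both axes and, in 40 of 41 cases, above the dashed line. Of all 7820 tested genes, 3734 had a larger value with ATRA than without.

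Further programmes gave 0 calls by limma against ATRA. MYC, which ATRA alone lowered from 168, 184 and 205 to 72, 73 and 103 RPKM, stood at 72, 70 and 107 with the combination, and 0 of 10 genes of the MYC, MAX and MXD list passed, against 1 in each direction before adjustment. Its antagonist MXD4 was listed at 4, 4 and 3 RPKM with ATRA and at 5 in each combination library (log2 fold change 0.45, adjusted p = 0.122). The integrated stress response, of which 8 of 20 tested genes were called higher with palbociclib alone, had 0 calls in limma, 3 higher and 2 lower at the unadjusted level and a median of 0.02. Its central factor ATF4 read 269, 212 and 199 RPKM with ATRA and 280, 215 and 202 with the combination. Limma called 0 of the tested genes of the p53 target, BCL2 family, immediate early, interferon, glycolysis and ribosome biogenesis lists. At an unadjusted p‐value under 0.05 between 1 and 4 genes of each of these lists passed. Of all 7820 tested genes, 519 were higher and 768 lower at that level.

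The study drew genes that it selected on these samples, so their direction is not independent evidence. Of 79 drawn as lower 54 were tested, 53 had a negative log2 fold change and 25 passed, with a median of -0.30. Over all 7820 tested genes 3028 values were negative and 3338 positive, and 1.83% were called lower. Of 18 drawn as higher 13 were tested, all 13 had a positive value, 11 of them in every pair, and 0 passed in limma, against 8 at an unadjusted p‐value under 0.05, with a median of 0.20. After MXD4, at 0.45, the largest value was that of PNRC1, a nuclear receptor coactivator, at 11, 12 and 9 RPKM with ATRA and 15, 14 and 12 with the combination (log2 fold change 0.36, adjusted p = 0.122). SERPINB1, an inhibitor of neutrophil proteases, read 61, 68 and 75 RPKM against 69, 77 and 88 (log2 fold change 0.20), which passed in the paired fit of the 6 libraries (adjusted p = 0.0471).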

How the data were processed

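RNA was sequenced from HL‐60 cells in 12 libraries (untreated, 100 nM ATRA, 500 nM palbociclib or both, n = 3, 3 h). The authors prepared poly(A) libraries, aligned reads to hg38 with HISAT2 and counted them with htseq-count. Their voom analysis was not repeated. The deposited values are RPKM that the authors rounded to whole numbers, and were handled as a score with a step of 1, not as counts. They do not show how deeply a library was sequenced.

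Log2(RPKM + 0.1) of the 7820 genes with at least 5 RPKM in at least 3 libraries was fitted with limma 3.58.1 (R 4.3.3; lmFit, eBayes with trend). The model of the combination against ATRA held the 9 treated libraries, with 1 mean per group and the replicate number as a block. It has 4 residual degrees of freedom. Palbociclib against untreated cells and the departure (effect with ATRA minus effect without) used all 12 libraries with the block. Genes were called at a Benjamini-Hochberg adjusted p under 0.05. The labels do not say what a replicate number shares. Deviations of same‐numbered libraries from their group means correlated across genes at r = 0.782 to 0.908 for ATRA with the combination. The combination with palbociclib gave 0.438 to 0.702, palbociclib with ATRA 0.497 to 0.751, and untreated libraries with any other 0.0453 to 0.367. The treated libraries were therefore paired by number.

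Members, lists, model and filter were chosen with earlier results of these data known, and the heat shock list after its values were seen. Named genes are the 12 largest increases and decreases among called genes with the same sign in 3 pairs and a mean of at least 5 RPKM in the higher group, list members and genes the study names. Genes outside these rules were chosen after their values were seen. Gene coordinates are those of GENCODE on GRCh38, and promoters come from RefSeq on GRCh38.p14. Some list members are counted but not reported by name here. Scripts were tested on simulated data. Tables and plots used Python 3.11.15, pandas 2.3.3 and matplotlib 3.10.9.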

Additional observations from a re-analysis of the deposited data

How the results depend on the processing

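The direction of every gene named as called was kept under each alternative in which it was tested, for 64 called genes. Leaving out a replicate number could not turn it, since each called gene moved the same way in its 3 pairs. Dropping the block from the 9 treated libraries or changing the threshold does not alter the fold change. Genes not called could change sign, as MYC did between -0.08 and 0.05. Numbers of calls depended on the settings. Given as lower and higher, the 143 and 45 genes became 0 and 0 without the replicate block in the 9 treated libraries, 9 and 0 without the block in all 12, and 21 and 6 without it in the 6 libraries compared. With the block they were 262 and 243 in the 6 libraries and 50 and 1 in all 12, and with the block as a random effect 26 were higher. The 6 libraries with the block called 101 of the 188 genes again, and all 12 called 49. An adjusted p under 0.01 gave 12 and 3, and under 0.001 gave 0 and 0. Centring libraries on their median gave 56 and 16, and turned the numbers at an unadjusted p under 0.05 from 768 and 519 to 321 and 758. The filter at 1 RPKM left 89 lower and no filter 87, while the filters at 10 and 20 left 18 and 15 higher, and a mean difference over 1 RPKM left 19 higher (the last 2 chosen after seeing the data). Leaving out a replicate number or a library gave 0 to 180 lower and 0 to 135 higher, with 0 of both without replicate 2. For palbociclib against untreated, no block gave 247 and 71, an adjusted p under 0.001 gave 78 and 5, centring gave 305 and 666, and leaving out a replicate gave 22 to 535 and 3 to 347. The departure from additivity called 1 negative gene each with the filter at 10 RPKM, a pseudocount of 1 and centring, and 0 to 101 positive and 0 to 108 negative genes with a replicate left out. Centring used the median RPKM of each library over the tested genes, which is a whole number. It was 12, 13 and 13 in ATRA replicates 1 to 3 and 12, 12 and 13 with the combination. Untreated libraries had 13 each, and palbociclib libraries 12, 12 and 13. Centring therefore shifted libraries against each other by 1 rounding step or not at all. Beyond this, the cause of these changes was not tested. The median of the S phase list stayed between -0.44 and -0.36. A step of 1 RPKM, the smallest that the deposited values show, is a log2 change of 0.26 at 5 RPKM.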

Other observations

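Cytosolic heat shock chaperones were compared as a list after the values of HSPA1A and HSPA1B had been seen. Of 18 genes 17 were tested, 3 fell, 16 had a negative log2 fold change against ATRA, 12 of them in every pair, and the median was -0.11. Over all 7820 tested genes 1.83% fell, 3028 had negative values and 908 (11.6%) were lower in every pair. Among the 3 calls HSPA1A and HSPA1B are near-identical copies and do not count as separate results. The third call was DNAJB1, the HSP40 partner of HSP70, at 38, 42 and 43 RPKM with ATRA and 29, 30 and 28 with the combination (log2 fold change -0.50, adjusted p = 0.0318 from limma). Its groups did not overlap. HSPA8, the constitutive HSP70, read 535, 614 and 717 RPKM against 468, 529 and 563 (log2 fold change -0.25, not called), and HSF1, the factor that induces this programme, had a log2 fold change of 0.00. Without ATRA, the palbociclib libraries of DNAJB1 differed from untreated by -0.29 on the log2 scale (adjusted p = 0.0524).

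Of the genes called lower, 54 belonged to one of the function, phase or pathway lists, leaving aside the drawn genes and the heat shock chaperones, and of those called higher 1 did. How many of all tested genes belong to them is not given here, so these counts measure no enrichment in the lists. Outside these, and chosen after their values were seen, were TCF19 (log2 fold change -0.56), MCMBP (-0.38), which binds the MCM helicase, the histone variant gene H2AFX (-0.36) and the thioredoxin reductase gene TXNRD1 (-0.35). Among the higher genes outside the lists was GAS5, a small nucleolar RNA host gene like SNHG8, at 72, 56 and 61 RPKM with ATRA and 78, 60 and 67 with the combination (log2 fold change 0.12). VAV1, a signalling protein of blood cells, read 25, 25 and 27 RPKM against 27, 27 and 29 (log2 fold change 0.11).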
